A study of Mus musculus with 10 samples.

Results

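The genes described here encode the machinery of programmed cell death in the mouse: caspases, the BCL-2 family, the proteins with a BIR domain (inhibitors of apoptosis), p53, APAF1 and the receptors of the TNF superfamily whose symbols begin with Tnfrsf. The rule that selects them reads gene symbols, among the transcripts that the tables list as known mRNAs. The rule found 44 genes of the 16082 known-mRNA genes with a value in any sample. The tables hold 69572 genes when known lncRNAs and predicted transcripts are counted as well. Of the 44 genes, 14 were TNF receptors, 9 anti-apoptotic BCL-2 proteins, 4 BH3-only proteins, 4 other BCL-2 relatives, 4 BIR proteins and 4 caspases. The remaining 5 were Bax, Bak1, Apaf1, Trp53 and Casp8ap2.

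Apoptosis can start at the cell surface, where a ligand engages a death receptor and activates caspase-8, or at the mitochondrion. There, BH3-only proteins such as BIM (Bcl2l11) and BAD relieve the restraint that BCL-2, BCL-XL (Bcl2l1), BCL-W (Bcl2l2) and MCL1 place on BAX and BAK, and APAF1 with caspase-9 then activates the executioner caspases. Many germ cells die by apoptosis during normal spermatogenesis, and cadmium is a known toxicant of the testis. Not every member kills cells: several TNF receptors carry no death domain and signal for survival, or act as decoys.

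RNA was sequenced from sperm and testes of mice that the sample labels give as C57BL/6, aged 3 to 5 months, with 50 mice in each arm, and no genetic alteration is given for any group. The published methods name the substrain C57BL/6J, and their age range and number of control mice differ from those of the labels. Cadmium mice received 1 intraperitoneal injection of CdCl2 at 3 mg/kg, control mice received saline, and both arms were killed on day 35. Sperm was sampled 4 times in control mice and 2 times in cadmium mice, and testes 2 times in each arm. The published methods, which describe the control samples, give each sperm sample as a pool from several mice, taken by swim-out from vas deferens and cauda epididymis and treated to lyse somatic cells, and the testes of the same mice as combined, so that single animals are not seen. In bulk RNA of this kind, fewer cells of a type and less RNA per cell cannot be told apart.

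Library depth differed between the groups. Control sperm libraries held 366455 to 1058017 estimated counts, cadmium sperm libraries 1155491 and 1254477, and the 4 testes libraries 2606086 to 2866856. Known mRNAs took 9.14 to 13.6% of these counts. Some genes that most cells use were also near or at 0, with Actb at 3.01 to 4.50 FPKM in the testes samples and Hprt listed at 0 in 8 of 10 samples, so a member listed at 0 is not shown to be absent. FPKM, the count of a transcript scaled to its length and to the library, is the unit of every level below. The label of sperm was checked against markers. Protamine 2 was between 184 and 438 FPKM in sperm and between 147 and 281 FPKM in testes. Protamine 1 went the other way, at 0 to 40.1 FPKM in sperm and 118 to 136 FPKM in testes. So did Tnp1, at 0 to 6.21 FPKM in sperm and 88.1 to 140 FPKM in testes. Odf1, a sperm tail gene, was listed at 0 in all 6 sperm samples. The summed level of 7 haploid germ cell markers was 234 to 465 FPKM in sperm and 467 to 572 FPKM in testes. The summed level of 5 spermatogonia markers was 0 in all 4 control sperm samples, 1.73 and 1.03 FPKM in cadmium sperm and 0.54 to 1.38 FPKM in testes. That of 6 epithelium and epididymis markers was above 0 in every sperm sample, at 2.79 to 6.96 FPKM, against 2.35 to 12.5 FPKM in testes. Of 6 Leydig cell markers, Star reached 27.5 FPKM in control sperm replicate 3 and was 0 to 5.59 FPKM in the other sperm samples, while the other 5 were at 0 in that replicate and Insl3 was at 0 in every sperm sample.

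Only 3 members were listed in all 10 samples: Tnfrsf13c, Bcl2l11 and Tnfrsf22. Of the 44, 27 were listed in both tissues, 12 in testes alone and 5 in sperm alone, and 7 were listed in a single sample. Counts were low, with 29 members never reaching 10 counts in a sample and 16 never reaching 3. Control sperm replicates 1 to 4 listed 7, 18, 3 and 14 members, cadmium sperm 20 and 24, control testes 31 and 23, and cadmium testes 34 and 28. Of all known-mRNA genes, control sperm replicates 1 to 4 listed 12.6, 41.9, 9.65 and 20.6%, cadmium sperm 48.7 and 47.0%, and the testes samples 71.7 to 76.2%. With every library thinned to the smallest total, control sperm was expected to list 3.0 to 13.5 members, cadmium sperm 15.1 and 16.4, and the testes samples 13.1 to 17.6. For all known-mRNA genes the same thinning gave 1552 to 4713 genes in control sperm, 5487 and 5030 in cadmium sperm, and 6125 to 6536 in testes. A further 13 symbols that fit the rule in the RefSeq gene table were not analysed here.

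**Figure D1:**
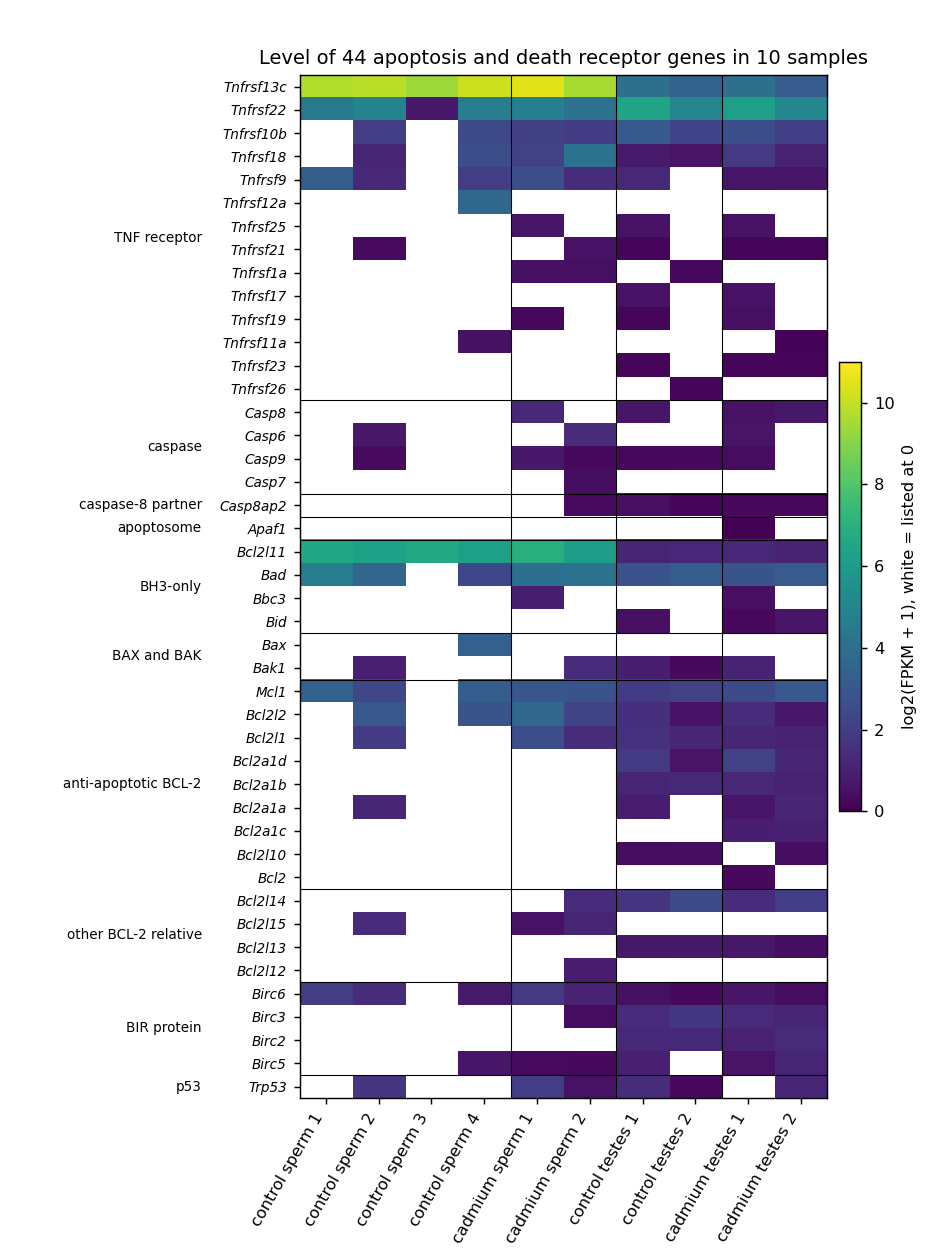
Level of each of the 44 members (rows, grouped by role) in each of the 10 samples (columns), as log2(FPKM + 1), with white for a gene listed at 0. Tnfrsf13c and Bcl2l11 are the brightest rows in the 6 sperm samples, most other rows are white in control sperm replicates 1 and 3, and Tnfrsf22 is the brightest row in the 4 testes samples.

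Tnfrsf13c was the most abundant member in sperm by a wide margin. It encodes the BAFF receptor, a TNF receptor known for the survival of B lymphocytes. Its level was 838, 932, 663 and 1154 FPKM in control sperm replicates 1 to 4 and 1441 and 747 FPKM in the cadmium sperm samples. In testes it was 15.7 and 9.89 FPKM in controls and 15.6 and 7.93 FPKM after cadmium. All 6 sperm samples lay above all 4 testes samples, with no overlap. Among all known-mRNA genes it ranked 5 or 6 in every sperm sample, and between 422 and 893 in the testes samples. It made up 83.7 to 88.1% of the summed FPKM of the members in sperm and 10.0 to 13.5% in testes.

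Bcl2l11, which encodes the BH3-only protein BIM, was the next most abundant member in sperm. Its level was 93.7, 76.9, 98.1 and 76.2 FPKM in control sperm replicates 1 to 4 and 122 and 69.8 FPKM in cadmium sperm. The testes samples gave 1.23 and 1.35 FPKM in controls and 1.39 and 1.14 FPKM after cadmium, resting on 7 to 9 counts each. Again the sperm and testes samples did not overlap. Most of its counts in sperm, 82.2 to 97.8%, were assigned to the transcript NM_001284410 of 2327 bases, and nearly all of the rest to NM_001291016 of 2304 bases. The longer transcripts NM_009754 (4779 bases) and NM_207680 (5037 bases) were at or near 0 in sperm, so nearly all counts there were assigned to the shorter transcripts. The paper describes sperm RNA as largely broken into fragments, with some transcripts intact. Read coverage along the transcripts was not examined here. The assignments therefore do not show an intact transcript of Bcl2l11, and the level of Tnfrsf13c does not show one either.

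Promoter sequence of these 2 genes is shown, in part for Bcl2l11, because both were far higher in sperm than in testes. Bcl2l11 has windows of 250 bases before a start at chr2:128125788-128126037 and chr2:128127325-128127574, with 3 and 2 GC boxes. Only 30 bases of the former are printed. The sequences come from RefSeq on GRCm38.p6, 5′ to 3′ on the strand of the gene, with every GC box (GGGCGG on either strand) in capitals.
Tnfrsf13c, chr15:82224381-82224630, minus strand, the 250 bases before the start: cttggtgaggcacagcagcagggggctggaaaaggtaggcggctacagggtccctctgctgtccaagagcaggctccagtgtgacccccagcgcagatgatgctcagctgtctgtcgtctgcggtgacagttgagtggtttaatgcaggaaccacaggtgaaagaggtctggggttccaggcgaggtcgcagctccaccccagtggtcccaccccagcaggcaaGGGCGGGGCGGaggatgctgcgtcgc
Bcl2l11, chr2:128125978-128126007, plus strand, 30 bases from position -60 to -31: gtgattgggcgcggGGGCGGgggctcaact
The Tnfrsf13c window held 2 overlapping GC boxes, at -26 and -21 from the start, and neither the cyclic AMP response element core TGACG nor the TATA letters TATAAA. Such boxes are common. At least 1 was present in 62.0% of the 50 windows that belong to 39 members, in 50.3% of windows of known-mRNA genes of these tables and in 32.7% of all 32851 windows. The core TGACG was in 26.0% of member windows and 23.1% of known-mRNA windows, and TATAAA in 8.0% and 8.21%. These are letter matches, on either strand, and do not show binding.

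On the same assembly Tnfrsf13c spans chr15:82221742-82224380 and overlaps none of its neighbours. Shisa8 and Srebf2, which both lie beyond its 3′ end, were at 0 to 1.95 and 0 to 4.25 FPKM over the 10 samples. No value is reported here for Cenpm, the neighbour on the side of its start. Bcl2l11 spans chr2:128126038-128162547 and shares its first 215 bases with the end of Acoxl, which lies on the same strand and was at 0.83 to 6.94 FPKM. Acoxl was far below Bcl2l11 in every sperm sample and above it in every testes sample.

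Tnfrsf13c and Bcl2l11 kept a similar proportion to each other in both tissues. Tnfrsf13c was 6.76 to 15.1 times Bcl2l11 in the 6 sperm samples and 6.96 to 12.8 times in the 4 testes samples, although the levels of both genes differed greatly between the tissues. The ratio is taken within a sample and does not depend on scaling between libraries. With 7 to 9 counts of Bcl2l11 in each testes sample, the testes ratios are imprecise. Against Mcl1, by contrast, Bcl2l11 was 8.95 to 18.8 times higher in the 5 sperm samples that listed Mcl1, and 0.164 to 0.420 times as high in testes.

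**Figure D2:**
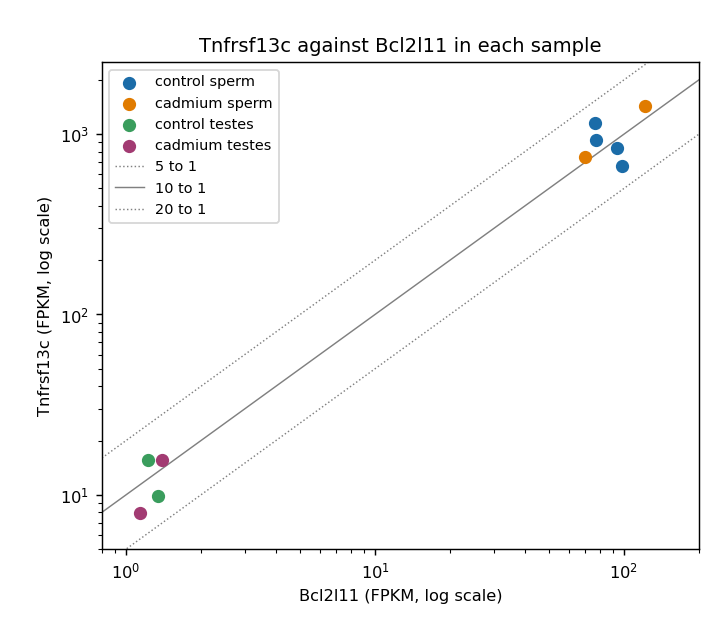
Level of Tnfrsf13c (vertical, FPKM, log scale) against Bcl2l11 (horizontal, FPKM, log scale), 1 point for each of the 10 samples, with lines where Tnfrsf13c is 5, 10 and 20 times Bcl2l11. The sperm samples sit at the upper right and the testes samples at the lower left, and all 10 points lie between the lines of 5 and 20.

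Markers of B lymphocytes, the cells in which Tnfrsf13c is best known, did not share its pattern. Of a list of 10 such genes, chosen after the level of Tnfrsf13c was seen, 8 were listed in any sample. Their summed level was 0 FPKM in all 4 control sperm samples, 4.16 and 1.69 FPKM in cadmium sperm and 2.37 to 5.51 FPKM in testes. The summed level of 6 leukocyte markers was 0 to 0.86 FPKM in control sperm, 5.30 and 1.70 FPKM in cadmium sperm and 2.64 to 3.84 FPKM in testes. Tnfsf13b, the ligand BAFF, was listed in a single sample, cadmium sperm replicate 1, at 1.04 FPKM.

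Tnfrsf22, which encodes a decoy receptor for TRAIL without a death domain, was the leading member in every testes sample. Its level was 86.1 and 31.5 FPKM in control testes and 76.3 and 33.6 FPKM in cadmium testes. Control sperm replicates 1 to 4 gave 20.9, 29.4, 0.66 and 24.3 FPKM, and cadmium sperm 26.2 and 16.0 FPKM. Every sperm sample lay below every testes sample, but the 2 testes replicates differed 2.73-fold in controls and 2.27-fold after cadmium. The low value in control sperm replicate 3 rests on 1 count. Its neighbours in the same receptor cluster, Tnfrsf26 and Tnfrsf23, were low in every sample, and Tnfrsf26 was listed once, at 0.13 FPKM. Tnfrsf10b, the mouse death receptor for TRAIL, was at 7.76 and 3.62 FPKM in control testes, 5.21 and 3.12 FPKM in cadmium testes, and 0 to 4.37 FPKM in sperm. Sperm and testes overlapped for Tnfrsf10b.

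The other TNF receptors were sparse. Tnfrsf18 (GITR, a costimulatory receptor) was at 3.38 and 16.5 FPKM in cadmium sperm and 2.56 and 1.16 FPKM in cadmium testes. In controls it was at 0, 1.23, 0 and 5.15 FPKM in sperm and at 0.72 and 0.51 FPKM in testes. The high value in cadmium sperm replicate 2 rests on 20 counts. Tnfrsf9 (4-1BB, also costimulatory) ranged from 0 to 8.42 FPKM in sperm and from 0 to 1.42 FPKM in testes. Tnfrsf12a, the receptor for TWEAK, was listed in control sperm replicate 4 alone, with 5 counts. The TNF receptor Tnfrsf1a and the death receptor Tnfrsf21 never had more than 2 counts in a sample. Without Tnfrsf13c and Tnfrsf22, the 12 remaining TNF receptors together had 0 to 38.1 counts per sperm sample and 32.6 to 87.0 per testes sample.

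Of the BH3-only genes other than Bcl2l11, only Bad was measured in most samples. BAD binds and neutralises BCL-2 and BCL-XL. Its level was 23.3, 11.3, 0 and 4.15 FPKM in control sperm, 15.2 and 16.8 FPKM in cadmium sperm, 5.91 and 8.16 FPKM in control testes, and 6.21 and 7.84 FPKM in cadmium testes. Control sperm samples lay on both sides of the testes samples, while both cadmium sperm samples lay above them. Bid and Bbc3 (PUMA, a p53 target) had at most 3 counts in any sample.

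The effectors were barely seen. Bax, which permeabilises the mitochondrion, was listed in control sperm replicate 4 alone, with 4 counts, and Bak1 never exceeded 6 counts. Apaf1 and Bcl2 each had 1 count, in cadmium testes replicate 1. Caspases 6, 7, 8 and 9 together with Apaf1 had 35.0 counts over all 10 samples, and none exceeded 4.02 counts in a sample. Trp53, which encodes p53, had 0 to 8 counts per sample. The caspases, Apaf1, Bax, Bid and Bbc3 did not reach the minimum of 5 counts in at least 2 samples and were not in the main tests. With no such filter none of these 8 was called in any comparison, and the smallest unadjusted p was 0.0053, for Bax between control tissues (edgeR, adjusted p = 0.110).

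Among the anti-apoptotic BCL-2 genes, Mcl1 was the most evenly measured. It was at 9.54, 4.09, 0 and 8.52 FPKM in control sperm, 6.73 and 6.21 FPKM in cadmium sperm, 2.93 and 3.56 FPKM in control testes and 4.58 and 6.95 FPKM in cadmium testes. The tissues overlapped. Bcl2l2 (BCL-W, a gene known to be needed for spermatogenesis) was at 0, 6.86, 0 and 6.29 FPKM in control sperm and at 11.3 and 3.74 FPKM in cadmium sperm. Testes gave 1.83 and 0.45 FPKM in controls and 1.60 and 0.65 FPKM after cadmium. Bcl2l1 was at 5.06 FPKM or less throughout. The 4 Bcl2a1 genes are near-identical copies whose counts may be split arbitrarily between them, and their values are uncertain.

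Birc2 and Birc3, which encode the ubiquitin ligases cIAP1 and cIAP2, were seen mainly in testes. Birc2 was listed at 0 in all 6 sperm samples and at 1.33, 1.39, 1.12 and 1.54 FPKM in the testes samples. Birc3 was at 0.29 FPKM in cadmium sperm replicate 2 and at 0 in the other sperm samples, against 1.56 and 2.49 FPKM in control testes and 1.45 and 1.23 FPKM in cadmium testes. Birc6, a very large BIR protein of 15768 bases of transcript, was at 2.57 and 1.06 FPKM in cadmium sperm and at 0.58 and 0.30 FPKM in cadmium testes. In controls its values overlapped, at 2.98, 1.67, 0 and 0.75 FPKM in sperm and 0.42 and 0.23 FPKM in testes. Birc5 (survivin, a mitotic protein) never reached 10 counts, nor did Trp53.

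**Figure D3:**
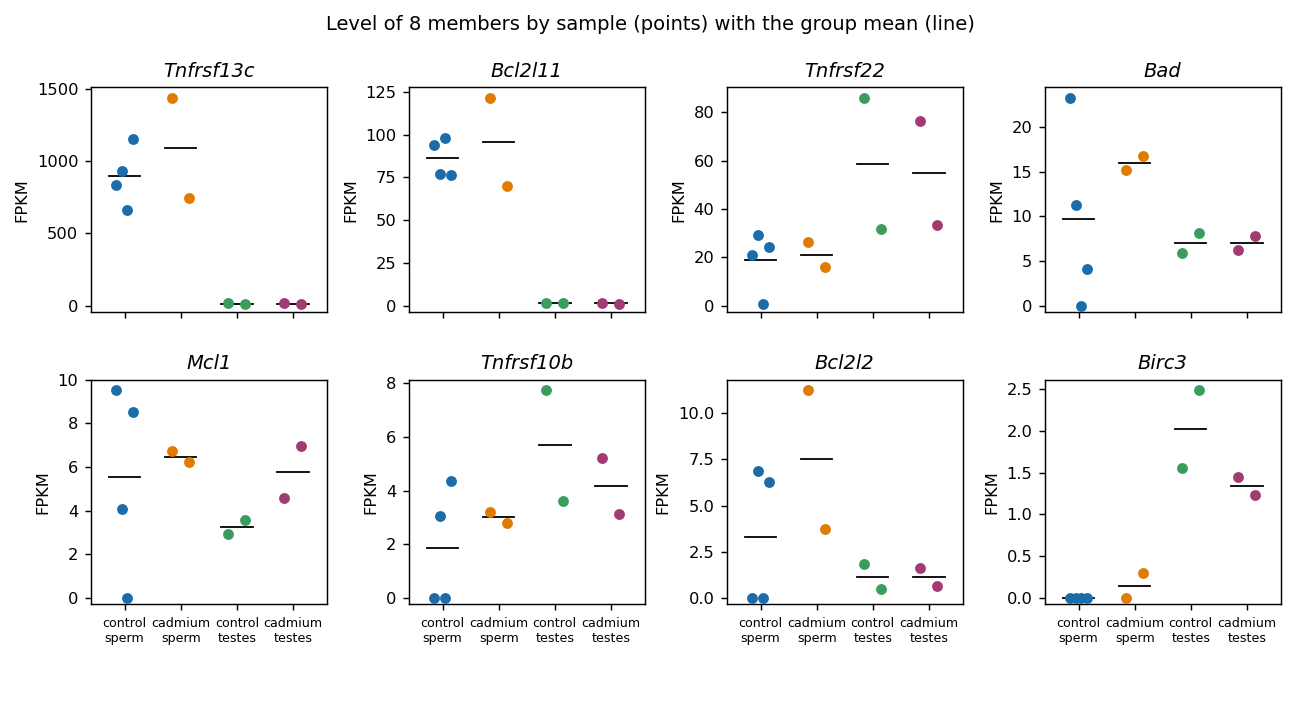
Level in FPKM of 8 members in each sample (points) with the mean of each group (line), in control sperm, cadmium sperm, control testes and cadmium testes. Vertical axes differ between genes and are linear. Tnfrsf13c and Bcl2l11 separate sperm from testes completely, Tnfrsf22 and Birc3 are higher in testes, and within a tissue most control and cadmium points overlap.

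The first comparison asked which members differ between mature sperm and testes of control mice. Control sperm replicate 1 did not enter the tests. Of the 44 members 13 had enough counts to be tested, and 6 were called at an adjusted p below 0.05 and more than 2-fold change by edgeR's quasi-likelihood test. Over all 20821 genes tested, 24.1% were called, 3.76% higher and 20.3% lower in sperm. Tnfrsf13c was higher in sperm, at 916 ± 246 FPKM (SD, n = 3), than in testes, at 12.8 ± 4.11 FPKM (SD, n = 2), by 6.19 on the log2 scale with a standard error of 0.81 (edgeR, adjusted p = 2.1e-11). Bcl2l11 was higher too, at 83.8 ± 12.4 FPKM (SD, n = 3) against 1.29 ± 0.0849 FPKM (SD, n = 2), by 5.81 with a standard error of 1.06 (edgeR, adjusted p = 4.2e-06).

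The 4 members called lower in control sperm were Birc2, Birc3, Bcl2l13 (an outer mitochondrial membrane protein) and Bcl2l14 (BCL-G, a little-studied BCL-2 relative known from testis). All were listed at 0 in the 3 control sperm samples of the test. They passed the count filter through the testes samples alone and could only come out lower in sperm. Taking 3 counts over the group as the least that could have been seen, they were at least 2.89-, 3.59-, 2.97- and 4.94-fold lower than in testes. Their edgeR adjusted p-values were 0.0189, 0.0314, 0.0214 and 0.0427. Bcl2l13 was at 0.64 and 0.70 FPKM and Bcl2l14 at 2.24 and 4.93 FPKM in control testes. These 4 calls are not firm. None held with DESeq2 or without control sperm replicate 4, where Tnfrsf13c and Bcl2l11 alone remained called, and the number of members called was 2 without control testes replicate 1 and 3 without control testes replicate 2, where the third was Tnfrsf22.

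The other 7 tested members did not pass. Tnfrsf22 averaged 18.1 ± 15.3 FPKM over the sperm samples (SD, n = 3), against 58.8 ± 38.6 FPKM for testes (SD, n = 2), with a log2 fold change of -1.41 and a standard error of 0.74 (edgeR, adjusted p = 0.158). It passed under 3 of 14 alternatives: with the size factors of DESeq2 in edgeR (log2 fold change -1.68, adjusted p = 0.0287), without control sperm replicate 2 (-2.28, adjusted p = 0.0364) and without control testes replicate 2 (-2.48, adjusted p = 0.0037). With scaling on known mRNAs alone it did not (edgeR, adjusted p = 0.130). Mcl1, Bad, Bcl2l1, Bcl2l2, Birc6 and Tnfrsf10b had log2 fold changes between -1.01 and 2.22 with standard errors of 1.46 to 1.63. The median log2 fold change was -0.19 over the members tested, -1.41 over known-mRNA genes and -1.26 over all genes tested. The samples did not overlap for 2 members higher in sperm and 5 lower, beside 8.53% and 48.8% of all genes.

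The same comparison in cadmium mice uses separate samples. Here 15 members were tested and 8 were called, where 37.2% of 21607 genes were called, 18.1% higher and 19.0% lower in sperm. Tnfrsf13c again led, at 1094 ± 491 FPKM in sperm (SD, n = 2) against a testes mean of 11.8 ± 5.45 FPKM (SD, n = 2), higher by 6.96 on the log2 scale with a standard error of 0.81 (edgeR, adjusted p = 1.1e-11). Bcl2l11 followed with 6.61 and a standard error of 0.70 (edgeR, adjusted p = 2.5e-13). Bcl2l2 was higher in sperm by 3.09 on the log2 scale with a standard error of 0.67 (edgeR, adjusted p = 0.000102). Tnfrsf18 was higher by 2.86 (standard error 0.87), Birc6 by 2.43 (0.62) and Bad by 1.58 (0.61), with edgeR adjusted p-values of 0.00618, 0.00103 and 0.0320. Birc2 and Bcl2l13 were called lower, at least 3.52- and 2.74-fold against the same limit of 3 counts. Both were at 0 in cadmium sperm and passed the count filter through testes alone, so no other direction was possible.

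The survival gene Bcl2l2 and the pro-death gene Bad were thus both called higher in cadmium sperm than in cadmium testes. The Bad call held under 4 of 12 alternatives and was lost with DESeq2, with limma and without cadmium sperm replicate 2 or either cadmium testes replicate. Those of Bcl2l2, Birc6 and Tnfrsf18 held under 9 of 12, 8 of 12 and 6 of 10 alternatives that tested them. All 3 were lost with limma and without cadmium testes replicate 2. Tnfrsf18 had 3 and 20 counts in cadmium sperm and 7 and 3 in cadmium testes, so its call rests largely on cadmium sperm replicate 2. Without that replicate, or without cadmium testes replicate 1, Tnfrsf18 had too few counts to be tested. Without cadmium testes replicate 1 the number of members called was 4, and without cadmium testes replicate 2 it was 2. The median log2 fold change was 1.58 over the members tested and -0.34 over all genes tested. Samples did not overlap for 7 members higher and 5 lower, beside 22.8% and 48.1% of all genes. Of the 13 members tested in both sets of mice, 4 were called in both: Tnfrsf13c and Bcl2l11 higher, and Birc2 and Bcl2l13 lower. The direction of Birc2 and Bcl2l13 was fixed by the count filter in both sets. Over all genes, 14.7% of the 18631 tested in both sets were called in both in the same direction. In cadmium mice the call of Bcl2l13 was lost under 6 of 9 alternatives that tested it and that of Birc2 under 2 of 10. The fit with the replicate number as a block lost both. Without cadmium testes replicate 1 or 2 neither gene had enough counts to be tested, so those fits are not among these alternatives.

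**Figure D4:**
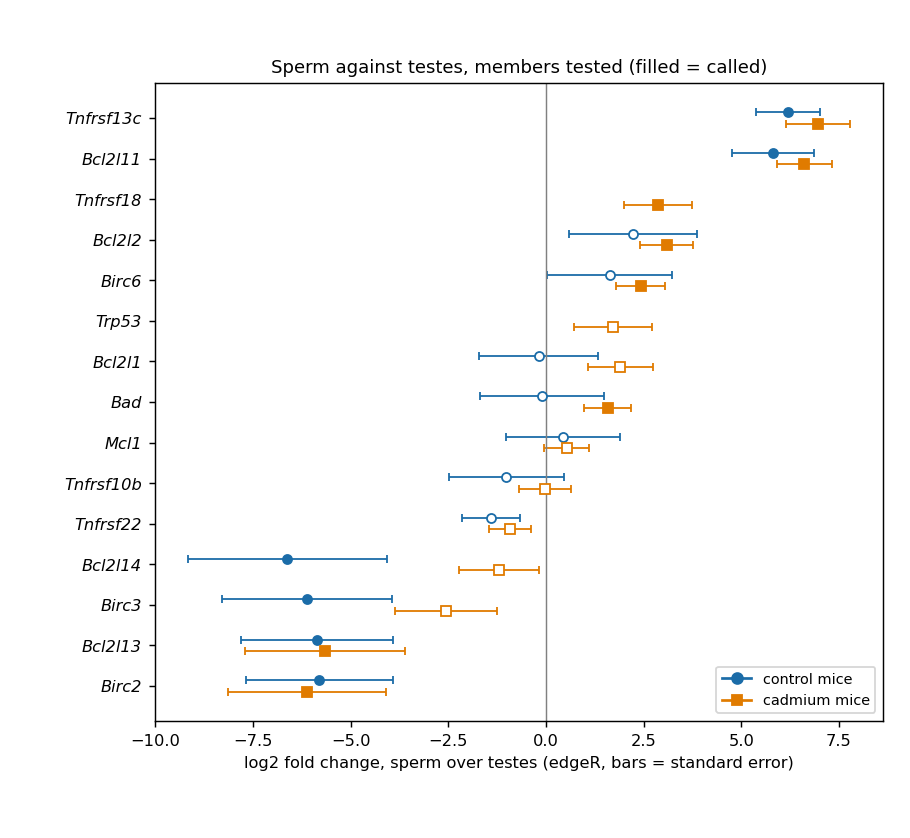
Log2 fold change of sperm over testes with its standard error (bars, worked back from the edgeR test) for every member tested in control mice (circles) and cadmium mice (squares), filled where called. Tnfrsf13c and Bcl2l11 lie near 6 to 7 in both. Values below -5 belong to genes at 0 in the sperm samples. Their size depends on the test's prior count, and their direction was fixed by the count filter.

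Genes that work beside the members were taken from lists of the pathway. Of 8 TNF receptors with other symbols, 3 were tested and none was called in control mice. In cadmium mice Edar, the ectodysplasin receptor, was called higher in sperm (log2 fold change 2.02, standard error 0.61). Of 18 ligands of the TNF superfamily 3 were tested in either set. None was called in controls, and Tnfsf12 (TWEAK) was called higher in cadmium sperm by 3.20 with a standard error of 0.68. Of 17 adaptors and kinases 4 were tested, and 1, Traf5, was called lower in cadmium sperm. Over all genes, 18.1% were called higher in cadmium sperm and 19.0% lower. The Edar call was lost with limma, the Traf5 call with DESeq2, and the Tnfsf12 call with limma at a pseudocount of 0.1. Fas was listed in 1 sample and Fadd, the adaptor of the death receptors, never exceeded 1.22 FPKM.

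Of 13 mitochondrial factors and executioners in their list, Endog (a nuclease released in apoptosis) and Diablo (SMAC, an antagonist of BIR proteins) were called lower in sperm in both control and cadmium mice, of 4 and 5 tested. No other gene of this list was called between the tissues. Endog was at 282 and 361 FPKM in control testes and at 31.0, 54.1, 52.8 and 115 FPKM in control sperm, a log2 fold change of -2.20 with a standard error of 0.73. Diablo was at 34.3 and 40.3 FPKM in control testes and at 0 to 8.25 FPKM in control sperm, and its call in control mice was lost with limma. Of 17 genes of the p53 list 6 were tested, and 4 were called lower in control sperm and 3 in cadmium sperm, where 20.3% and 19.0% of all genes were. With DESeq2 only Trp53bp1 of these stayed called in control mice, and none did in cadmium mice. Mdm2, Ccng1 and Trp53inp1 were at 0 in the control sperm samples of the test, and Mdm2 and Trp53inp1 in cadmium sperm. The count filter left them no other direction there. Mdm2, which encodes the ligase that degrades p53, was at 0 in all sperm samples and at 0.58 to 1.65 FPKM in testes. Of 17 further BCL-2 family partners, Vdac2, Vdac3 and Bag4 were called lower and Moap1 higher in control sperm, of 9 tested. In cadmium sperm only Bcap31 was called, higher, of 6 tested. Over all genes, 3.76% were called higher and 20.3% lower in control sperm, and 18.1% higher in cadmium sperm. With DESeq2 Moap1 stayed called, while Vdac2, Vdac3, Bag4 and Bcap31 did not. The calls of Moap1 and Bcap31 were lost with limma. Vdac2, Vdac3 and Bag4 were at 0 in the control sperm samples of the test, and Moap1 in control testes. The count filter fixed the direction of these calls.

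The next question was whether cadmium changed the members within a tissue. In testes 16 members were tested and 0 were called, where 0.0161% of 24879 genes were called by edgeR. No member had an unadjusted p below 0.05, which 182 genes (0.732%) did, and DESeq2 and limma called 0 members as well. Mcl1 came nearest, at 5.77 ± 1.68 FPKM with cadmium (SD, n = 2) and 3.25 ± 0.445 FPKM without (SD, n = 2). Its log2 fold change was 0.91 with a standard error of 0.54 (edgeR, unadjusted p = 0.118, adjusted p = 1.00). Both cadmium testes samples lay above both control samples for Mcl1, and below them for Birc3 and Bcl2l1. Such separation held for 7.41% of all genes upward and 9.35% downward.

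Tnfrsf13c, Bcl2l11 and Tnfrsf22 had cadmium effects of -0.07, -0.07 and -0.01 on the log2 scale in testes, with standard errors of 0.49, 0.71 and 0.53. Bad was at 7.03 ± 1.15 FPKM with cadmium and 7.04 ± 1.59 FPKM without (SD, n = 2 each).

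In sperm 9 members were tested for cadmium and 0 were called, where 0.113% of 13240 genes were called by edgeR. None had an unadjusted p below 0.05, which 358 genes (2.70%) did, and DESeq2 and limma called 0 members. Tnfrsf13c had a log2 fold change of 0.21 with a standard error of 0.43, and Bcl2l11 of 0.19 with a standard error of 0.49. Of the 9 members, 1, Bad, was higher in cadmium samples without overlap, as were 20.3% of all genes. It was at 16.0 ± 1.15 FPKM with cadmium (SD, n = 2) and 5.14 ± 5.70 FPKM without (SD, n = 3), a log2 fold change of 1.36 with a standard error of 1.41 (edgeR, unadjusted p = 0.336). Control sperm replicate 1, not in this test, had 23.3 FPKM of Bad, above both cadmium samples. All 9 members had a positive fold change. The median was 0.52, beside 0.41 over known-mRNA genes and 0.33 over all genes tested, so most genes tested shifted the same way. Cadmium sperm libraries were deeper than control sperm libraries, and the part of depth in this shift was not tested.

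The cadmium effect in sperm was then set against that in testes in 1 model of 9 samples. Of 18 members tested 0 were called, where 0.011% of 27175 genes were called by edgeR. The smallest unadjusted p of a member was 0.0841, for Bcl2l14, which was listed in 1 of 5 sperm samples of the model. DESeq2 and limma called 0 members. For Tnfrsf13c the effect was larger in sperm by 0.36 on the log2 scale with a standard error of 0.69, and for Bcl2l11 by 0.35 with a standard error of 1.04.

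**Figure D5:**
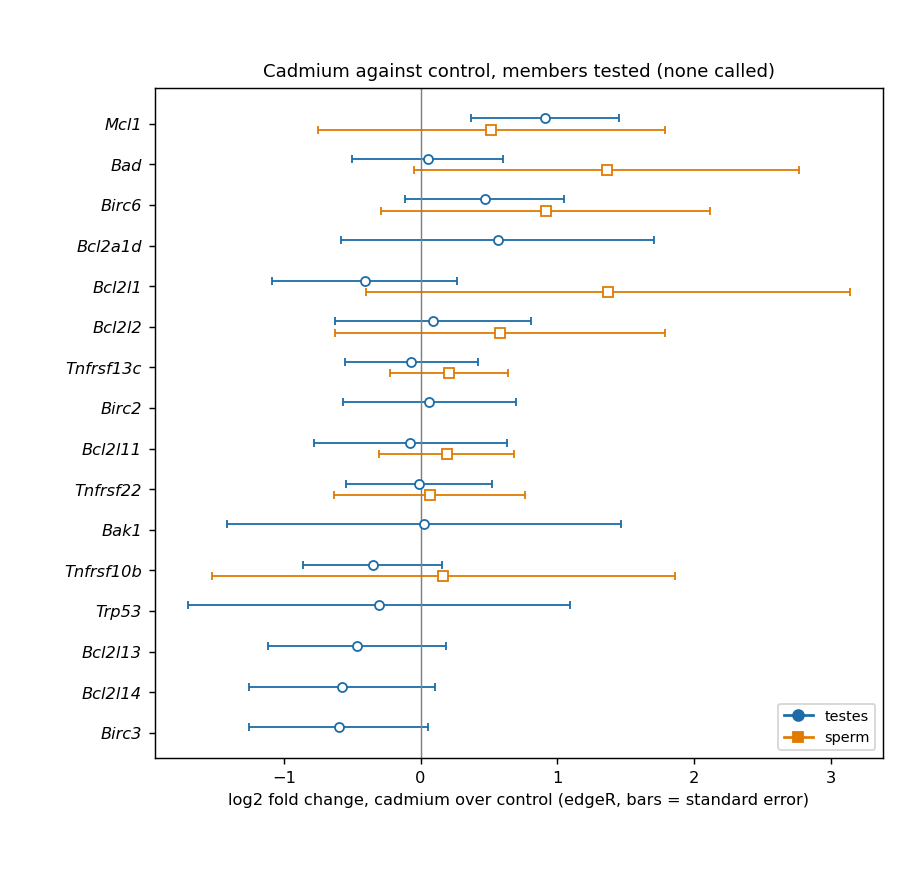
Log2 fold change of cadmium over control with its standard error (bars, worked back from the edgeR test) for every member tested in testes (circles) and in sperm (squares). No member was called. Bars are wider in sperm for most genes, and Mcl1 in testes lies farthest from 0 relative to its bar.

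The members' share of known-mRNA signal separated the tissues through Tnfrsf13c. The 44 genes made up 2.04 to 2.95% of the FPKM of known mRNAs in sperm and 0.151 to 0.322% in testes. Without Tnfrsf13c, the share was 0.265 to 0.380% in sperm and 0.131 to 0.286% in testes, and the ranges overlapped. Controls and cadmium samples overlapped in each tissue with and without Tnfrsf13c.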

How the data were processed

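Ribosomal RNA was removed from total RNA by RNase H digestion before strand-specific, paired-end sequencing. The authors trimmed reads and aligned them with SOAPaligner/SOAP2. The submitters' processing notes list HISAT and mm10. The tool behind the estimated counts is not given in the sources used here. The authors deposited, per sample, expected counts (not normalized) and FPKM (scaled to length and library) for each transcript above 0. Unlisted transcripts were taken as 0.

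Values were summed by gene, with known mRNAs kept apart. Control sperm replicate 1, which the paper dropped for its low correlation with the other sperm samples, was left out of the tests and kept as an alternative. Rounded counts were tested with edgeR 4.0.16 in R 4.3.3 (quasi-likelihood, TMM, Benjamini-Hochberg over all genes tested), over genes of at least 5 counts in at least 2 samples, each comparison fitted alone. The standard error is the log2 fold change divided by the root of F, not a spread between samples. DESeq2 1.42.0 and limma 3.58.1 on log2(FPKM + 1) or log2(FPKM + 0.1) were alternatives. The edgeR test was run on simulated counts with 200 changed genes, all well counted and with a fixed spread between replicates. Most members had few counts, so no conclusion about them is drawn from that run. A call needed adjusted p under 0.05 and over 2-fold change. Replicates are separate samples of one group per the labels. The p-values weigh a difference against the spread between these samples, which may be partly technical. Floors of 3 counts cover counting error only. Genes named were the core members, the 12 members highest by mean FPKM, every member called and, per comparison, the 3 largest rises and falls without overlap. The members and lists were chosen with earlier results of these data known. Windows and positions came from RefSeq on GRCm38.p6. Some genes that fit the rule or a list are not reported here.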

Additional observations from a re-analysis of the deposited data

How the results depend on the processing

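Tnfrsf13c and Bcl2l11 were called higher in sperm under all 14 alternatives in control mice and all 12 in cadmium mice, with log2 fold changes of 5.52 to 6.56 and 6.33 to 7.33 for Tnfrsf13c and 5.20 to 6.00 and 5.36 to 6.93 for Bcl2l11. The number of members called did not hold as well. In control mice it was 6, and 2 with DESeq2, with no filter, and with all 4 control sperm samples and the replicate number as a block. Leaving out each replicate in turn gave 2 to 8. In cadmium mice it was 8, and 4 with DESeq2 and 4 with limma at either pseudocount, and 2 to 9 leaving out each replicate. With the replicate block it was 6 there, and Birc2 and Bcl2l13 were the members lost. In the 3 cadmium comparisons 0 members were called under every alternative run, the block included. Where a replicate left out leaves 1 sample in a group, that sample is assumed to vary like the other group. Replicate numbers are not stated to pair samples. Deviations of same-numbered samples correlated at 0.506 in cadmium and control testes and 0.104 in cadmium sperm and testes, at -0.0896 in control sperm and testes and at -0.0855 in cadmium and control sperm. With 2 samples in both groups, the 2 pairs give the same value by construction. The block raised the genes called for cadmium in testes from 4 to 50.

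Genes called between control sperm and testes went from 5010 to 2834 with DESeq2, 1344 with no filter and 1619 with all 4 sperm samples and the block, and from 816 (without control sperm replicate 4) to 8883 (without control sperm replicate 2). Fitted and scaled on known mRNAs alone, 1538 of them were called, beside 1426 in the fit of all genes. In cadmium mice 8030 became 4777 with DESeq2, and 2361 to 6265 leaving out replicates, while known mRNAs alone gave 2414 beside 2265. For cadmium in testes 4 became 0 with limma, 88 with no filter and 8 to 32 leaving out replicates. For cadmium in sperm 15 became 0 with limma and 0 to 14 leaving out replicates, and for the difference between tissues 3 became 0 to 26. Other scaling moved the median log2 fold change of all genes from -1.26 to -1.44 (DESeq2 size factors), and scaling on known mRNAs alone moved the median of known mRNAs from -1.41 to -1.68.

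Some differences that were not called reversed. The Bad difference between control tissues became 0.0495 with all 4 sperm samples and 0.89 with the block added, and -1.86 to 0.51 leaving out replicates. That of Mcl1 became -0.22 and -1.12 with limma at pseudocounts of 1 and 0.1, and -0.13 to 1.04 leaving out replicates, or -0.29 to 0.74 in cadmium mice. For cadmium in testes, Tnfrsf22 was 0.0064 with no filter and 0.0143 with the replicate block. Leaving out replicates there gave -0.56 to 0.65 for Tnfrsf22, -0.48 to 0.20 for Tnfrsf13c, -0.37 to 0.30 for Bcl2l11 and -1.04 to 0.0447 for Birc3. For cadmium in sperm, Tnfrsf22 was -0.0122 with DESeq2, -0.0228 with its size factors, -0.024 on known mRNAs alone and -0.31 with all 4 sperm samples and the block, where Bad was -0.0401. Leaving out replicates there gave -0.50 to 0.73 for Tnfrsf22, -0.23 to 0.55 for Tnfrsf13c, -0.16 to 0.48 for Bcl2l11 and 0.82 to 2.82 for Bad. For the difference between tissues it gave -0.0343 to 0.75 for Tnfrsf13c and -0.042 to 0.61 for Bcl2l11. The cause of these reversals was not tested.

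The mean share of the members in control sperm was 2.54% of FPKM and 2.07% of counts. The mean number of members listed fell to 15.7 in cadmium sperm, 15.3 in control testes, 16.2 in cadmium testes and 9.20 in control sperm after thinning, and to 14.5, 16.5, 20.5 and 8.0 with at least 3 counts required. For all known-mRNA genes the mean after thinning was 5259 in cadmium sperm, 6331 in control testes, 6231 in cadmium testes and 2859 in control sperm. Control sperm replicates still differed after thinning, and the cause was not tested.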
